A study of Heterocephalus glaber and Cavia porcellus and Spalacopus cyanus with 7 samples.

Results

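Dicer, Drosha and Argonaute genes encode the machinery that makes small RNAs from double-stranded precursors and uses them to silence messenger RNAs. They were chosen by name as a set of 10 genes: the nuclear processing genes Drosha and Dgcr8, the export factor Xpo5, the cytoplasmic nuclease Dicer1 with its partners Tarbp2 and Prkra, and the Argonautes Ago1, Ago2, Ago3 and Ago4. All 10 matched an entry among 26623 entries of the naked mole-rat tables, and 9 matched among 25603 entries of the guinea pig table. Ago3 was not analysed in guinea pig, where neither that symbol nor the older Eif2c3 matched.

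The guinea pig oocytes came from 3 females aged 6 to 9 months and were merged into 1 library. The naked mole-rat oocytes came from 5 females aged 1 to 8 years, with 1 library per female, numbered here replicates 1 to 5. No treatment is named for any animal, the oocytes were fully grown or late in growth, and cumulus cells had been removed by pipetting. Of the 5 naked mole-rat libraries, replicates 4 and 5 carry the letter O in their titles, replicates 2 and 3 carry Y and replicate 1 carries neither, and no source used here explains the letters. The seventh library of the series, of coruro, holds counts of other genes and was not used here.

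In animal cells, Drosha and its RNA-binding partner DGCR8 cut primary microRNA transcripts in the nucleus, and exportin 5 carries the hairpins to the cytoplasm. Dicer, which works with the double-stranded RNA-binding proteins TRBP (Tarbp2) and PACT (Prkra), cuts hairpins into microRNAs and long double-stranded RNA into small interfering RNAs (siRNAs), and an Argonaute protein binds the product. In mouse oocytes the siRNA branch is essential and microRNA activity is low, and a short, highly active form of Dicer is made there from a promoter inside a retrotransposon. Counts per gene, as used here, do not separate such forms of a gene.

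Counts per library totalled 24515642 in guinea pig and 13512223 to 29561451 in naked mole-rat. Levels are given as counts per 1000000 counts of the library (CPM), which are not corrected for transcript length, so values of different genes are not compared as levels. Both species had strong oocyte markers, with a summed level of 16 listed genes, 13 of them with an entry, of 9495 CPM in guinea pig and 4662 to 10456 CPM in naked mole-rat. Oocyte markers at 1 CPM or more numbered 12 in guinea pig and 11 in every naked mole-rat library. The exceptions in naked mole-rat were Tle6, at 0 to 0.370 CPM, and Sohlh1, at 0 to 1.39 CPM. Naked mole-rat replicate 1 stood apart. Its sum of 16 granulosa cell markers was 6823 CPM, against 1888 CPM in replicate 5 and 568 to 881 CPM in replicates 2 to 4, and the same sum in guinea pig was 895 CPM. Granulosa markers at 1 CPM or more in every naked mole-rat library numbered 14 of 16, and none was at 0 in all 5. Replicate 1 also had the lowest oocyte sum, at 4662 CPM, whereas replicate 5 had 10293 CPM. Endothelial markers summed to 579 CPM in guinea pig and 105 to 278 CPM in naked mole-rat. Stroma markers summed to 373 CPM in guinea pig and 5.06 to 192 CPM in naked mole-rat, highest in replicate 1, and immune markers to 11.6 CPM in guinea pig and 3.19 to 105 CPM in naked mole-rat, again highest in replicate 1. Single genes carried much of these 2 sums in replicate 1, Col1a1 at 126 CPM and Cd74 at 98.6 CPM. Among naked mole-rat libraries, replicate 1 was highest for 4 of 7 stroma markers, while Star had 0.962 CPM there and 23.4 CPM in replicate 4. Results that rest on replicate 1 are therefore given with and without it. In such bulk samples, a smaller share of a cell type and less RNA per cell cannot be told apart.

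All 10 genes were measured well above the floor in naked mole-rat oocytes, with the lowest count, 89, for Prkra in replicate 5, where 3 counts correspond to 0.101 CPM. Drosha varied least between females in CPM on column totals, with a coefficient of variation of 12.1%, and Ago2 varied most, at 80.5%. The place of Drosha depends on the scaling. With TMM, a scaling described below, Drosha ran from 88.3 to 155 CPM, a wider span than that of Ago1, from 98.2 to 151 CPM. Without replicate 1, Ago2 was at 33.5% and Tarbp2 varied most, at 71.1%. The median over the 10 genes was 29.2%, beside 44.7% over the 14415 entries with a mean of at least 1 CPM. In guinea pig, Dicer1, Xpo5, Ago1 and Ago4 were lower than in every naked mole-rat library while Tarbp2, Prkra and Drosha were higher than in every one.

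**Figure D1:**
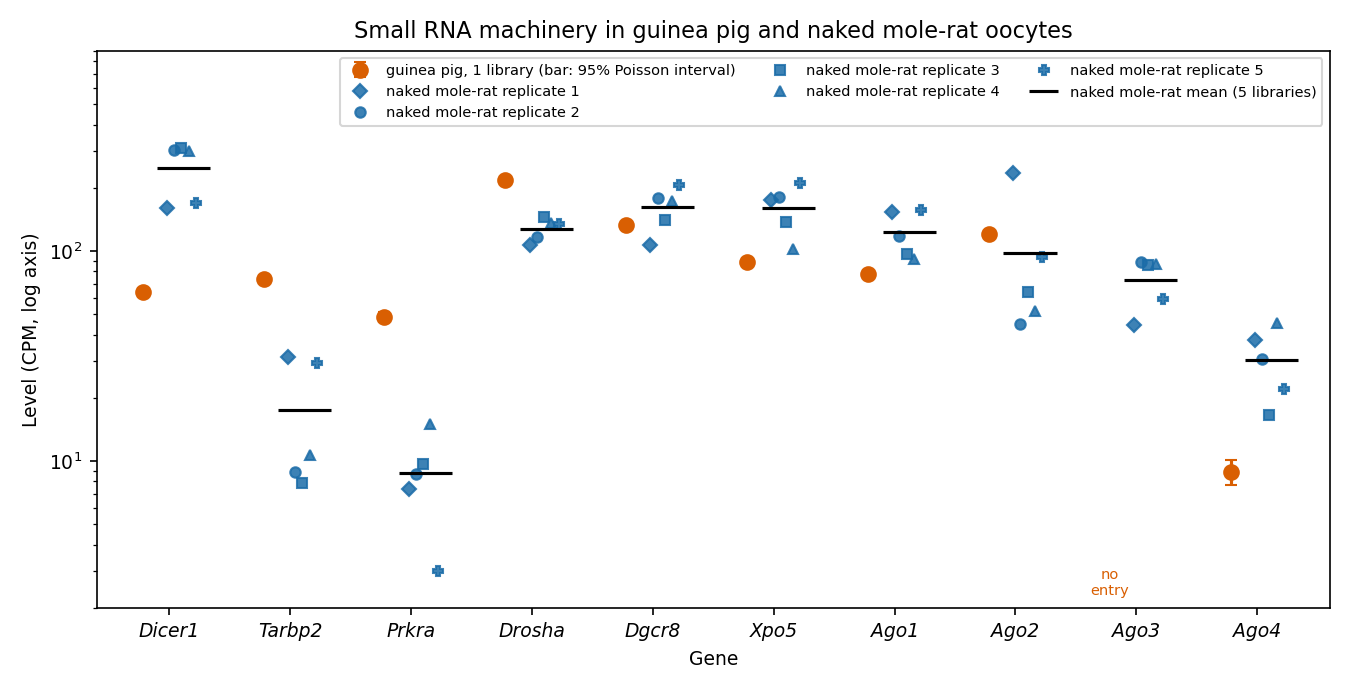
Level of each gene in CPM (log axis) in the guinea pig library (orange, with its 95% exact Poisson interval) and in the 5 naked mole-rat libraries (blue, one symbol per replicate, black line for the mean). Guinea pig Dicer1, at 63.6 CPM, lies below all 5 naked mole-rat values, and guinea pig Tarbp2 and Prkra, at 73.9 and 48.5 CPM, lie above all 5.

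For each gene the question was where the single guinea pig library lies relative to the range of the 5 naked mole-rat females. With 1 guinea pig library there is no test between the species. A gene was called higher or lower where its guinea pig CPM was at least 2 times the highest or at most 1/2 of the lowest naked mole-rat library. By this rule 2 of the 9 members were higher, Tarbp2 and Prkra, and 1 was lower, Dicer1. Prkra had 89 and 99 counts in naked mole-rat replicates 5 and 1, under the minimum of 100 counts. It was tested only because guinea pig, where it was then called higher, had 1188 counts. Genes of the background could enter in the same way. With no count minimum the same members were called, beside 18.3% of all genes higher and 14.4% lower. Among 10279 genes matched by symbol with enough counts, 18.5% were called higher and 15.1% lower, so the number of calls among the members is near the background and is no result about them as a set. At any fold, 3 of the 9 members lay above the naked mole-rat range, beside 37.2% of all genes tested, and 4 lay below it, beside 29.1%. The median log2 ratio of guinea pig to the naked mole-rat mean was -0.28 over the 9 members and 0.12 over the genes tested. The latter leaves out genes at 0 in guinea pig or in all naked mole-rat libraries. Transcript lengths and gene models of the 2 species differ and enter every such ratio.

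Among the nuclear genes, Drosha, the ribonuclease of the pair, had 218 CPM in guinea pig (95% exact Poisson interval 212 to 224). In naked mole-rat it had 107, 117, 145, 136 and 134 CPM in replicates 1 to 5, or 128 ± 15.4 CPM (SD, n = 5). The guinea pig value was 1.51 times the highest of these and does not pass the 2-fold rule. Its cofactor Dgcr8, which recognises the hairpin, had 133 CPM in guinea pig (128 to 138), against 107, 179, 141, 173 and 207 CPM in naked mole-rat replicates 1 to 5. The guinea pig value of Dgcr8 fell within the naked mole-rat range, whose mean was 161 ± 38.1 CPM (SD, n = 5), but it lay below that range, which then began at 141 CPM, without replicate 1.

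Xpo5, the exportin of hairpin precursors, had 89.1 CPM in guinea pig (85.4 to 92.9), against 175, 181, 138, 103 and 210.0 CPM in naked mole-rat replicates 1 to 5. The guinea pig value lay below all 5, and the lowest of them was 1.15 times as high. In naked mole-rat the mean was 161 ± 41.7 CPM (SD, n = 5).

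Dicer1 had 63.6 CPM in guinea pig (60.4 to 66.8), from 1558 counts. In naked mole-rat it had 161, 302, 310.2, 301 and 169 CPM in replicates 1 to 5, from 2177 to 8440 counts, with a mean of 249 ± 76.5 CPM (SD, n = 5). The naked mole-rat values fell at 2 levels, with replicates 1 and 5 low and the other 3 close together. Even the lowest was 2.54 times the guinea pig value, and the log2 ratio of guinea pig to the naked mole-rat mean was -1.97.

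The Dicer partners went the other way. Tarbp2, which encodes TRBP, had 73.9 CPM in guinea pig (70.5 to 77.4), against 31.2, 8.87, 7.89, 10.7 and 29.2 CPM in naked mole-rat replicates 1 to 5. Guinea pig was 2.37 times the highest naked mole-rat library, with a log2 ratio to the mean of 2.07. The mean of 17.6 ± 11.6 CPM (SD, n = 5) rests on replicates 1 and 5, without which it was 9.15 CPM. Prkra, which encodes PACT, had 48.5 CPM in guinea pig (45.7 to 51.3), against 7.33, 8.65, 9.63, 15.0 and 3.01 CPM in naked mole-rat replicates 1 to 5, with a mean of 8.73 ± 4.33 CPM (SD, n = 5). Here guinea pig was 3.23 times the highest library, with a log2 ratio to the mean of 2.47. Leaving out a naked mole-rat replicate can only narrow the range, so it could not undo the calls of Tarbp2, Prkra and Dicer1 and is no check of them. No member passed a 4-fold rule.

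The Argonautes bind the small RNA. AGO2 is the paralog known in mammals for strong slicing of a perfectly paired target, and siRNAs act through it in mouse oocytes. Ago2 had 121 CPM in guinea pig (117 to 125), against 235, 45.0, 63.9, 52.1 and 93.3 CPM in naked mole-rat replicates 1 to 5. The naked mole-rat mean was 97.8 ± 78.7 CPM (SD, n = 5), and without replicate 1 it was 63.6 ± 21.3 CPM (SD, n = 4). The guinea pig value fell within the naked mole-rat range, but it lay above that range, which then ended at 93.3 CPM, once replicate 1 was left out.

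Ago1 had 77.6 CPM in guinea pig (74.1 to 81.2), against 153, 118, 97.1, 91.8 and 156 CPM in naked mole-rat replicates 1 to 5. The guinea pig value lay below all 5, and the lowest of them was 1.18 times as high. Ago4 had 8.85 CPM in guinea pig (7.71 to 10.1), from 217 counts, against 37.6, 30.6, 16.5, 45.3 and 22.0 CPM in naked mole-rat replicates 1 to 5. The lowest of these was 1.87 times the guinea pig value, just short of the 2-fold rule, and Ago4 passed the rule when replicate 3, which holds that lowest value, was left out. Ago3 had 44.3, 88.8, 85.8, 86.9 and 59.0 CPM in naked mole-rat replicates 1 to 5, a mean of 73.0 ± 20.2 CPM (SD, n = 5). The sources used here do not say how reads matching more than 1 Argonaute gene were counted.

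**Figure D2:**
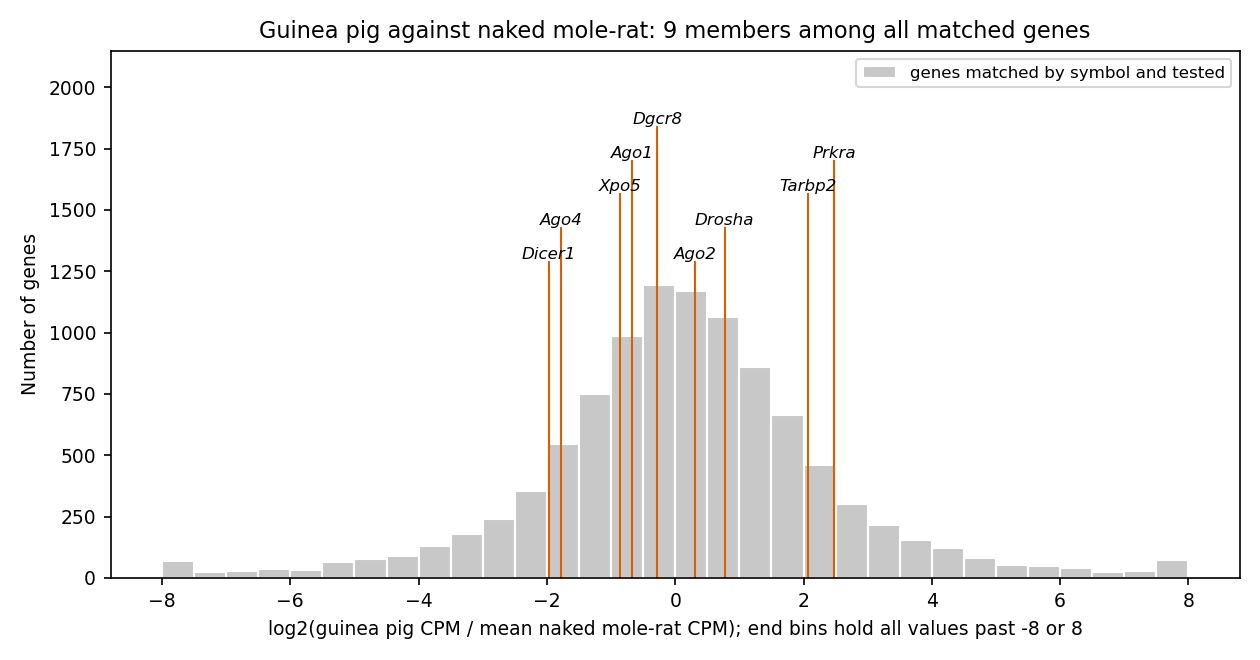
Number of genes (vertical axis) by log2 ratio of guinea pig CPM to mean naked mole-rat CPM (horizontal axis, bins of 0.5), with an orange line for each of the 9 members. Genes were matched by symbol and tested, leaving out those at 0 in guinea pig or in all naked mole-rat libraries. The members run from -1.97 for Dicer1 to 2.47 for Prkra, and the median of the genes shown is 0.12.

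Ratios of counts within a library do not depend on library totals. Between naked mole-rat libraries transcript length also cancels, but between species it does not. Of the 10 ratios computed, Dicer1 to Drosha was 0.291 in guinea pig (95% exact interval 0.275 to 0.308), against 1.5, 2.59, 2.14, 2.21 and 1.26 in naked mole-rat replicates 1 to 5. The lowest naked mole-rat ratio of this cytoplasmic to nuclear nuclease gene was 4.32 times that of guinea pig. Of all single genes tested, 37.2% lay above and 29.1% below the naked mole-rat range. The matching share was not computed for ratios of gene pairs, so a ratio outside that range is no result particular to these genes. Tarbp2 to Dicer1 was 1.16 in guinea pig (1.09 to 1.24), against 0.193, 0.0294, 0.0254, 0.0355 and 0.173 in naked mole-rat. Prkra to Dicer1 was 0.763 in guinea pig (0.706 to 0.823), against 0.0455, 0.0286, 0.0311, 0.0499 and 0.0178 in naked mole-rat. Guinea pig thus had 6.01 and 15.3 times the highest naked mole-rat ratio of these partners to Dicer1. These ratios come from the same counts as the calls above and are not independent of them.

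Dgcr8 to Drosha, the pair that forms the Microprocessor complex, was 0.610 in guinea pig (0.583 to 0.637) and 1.26 ± 0.275 in naked mole-rat (SD, n = 5), where it ran from 0.975 to 1.54. Xpo5 to Drosha was 0.409 in guinea pig (0.389 to 0.429) and 1.29 ± 0.408 in naked mole-rat (SD, n = 5), with a lowest value of 0.752. Both guinea pig ratios lay below all 5 libraries. Tarbp2 to Prkra was 1.52 in guinea pig (1.42 to 1.64), within the naked mole-rat values of 4.25, 1.03, 0.820, 0.713 and 9.69 in replicates 1 to 5. In naked mole-rat this ratio differed by up to 13.6 times between females, and without replicate 5, which holds the highest value, by up to 5.97 times. Its mean was 3.30 over the 5 females and 1.70 without replicate 5.

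Ago2 to Ago1 was highest in replicate 1 among the females. It was 1.56 in guinea pig, with an upper limit of 1.65 and a lower limit below the value of replicate 1, against 1.53 in naked mole-rat replicate 1 and 0.380, 0.658, 0.567 and 0.597 in replicates 2 to 5. Dicer1 to Ago2 was 0.526 in guinea pig (0.494 to 0.559), against 0.687 in replicate 1 and 6.71, 4.86, 5.78 and 1.81 in replicates 2 to 5. Replicate 5 was low with replicate 1 in this ratio, and the guinea pig library was nearest to replicate 1 in both. Stroma markers summed to 373 CPM in guinea pig and 192 CPM in replicate 1, against 5.06 to 35.5 CPM in replicates 2 to 5. The other lists did not pair these 2 libraries. Endothelial markers summed to 579 and 105 CPM in guinea pig and replicate 1, granulosa markers to 895 and 6823 CPM, and immune markers to 11.6 and 105 CPM. The part of other cells in these ratios was not tested. Ago4 to Ago1 was 0.114 in guinea pig (0.0987 to 0.131), below the naked mole-rat values of 0.140 to 0.494.

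**Figure D3:**
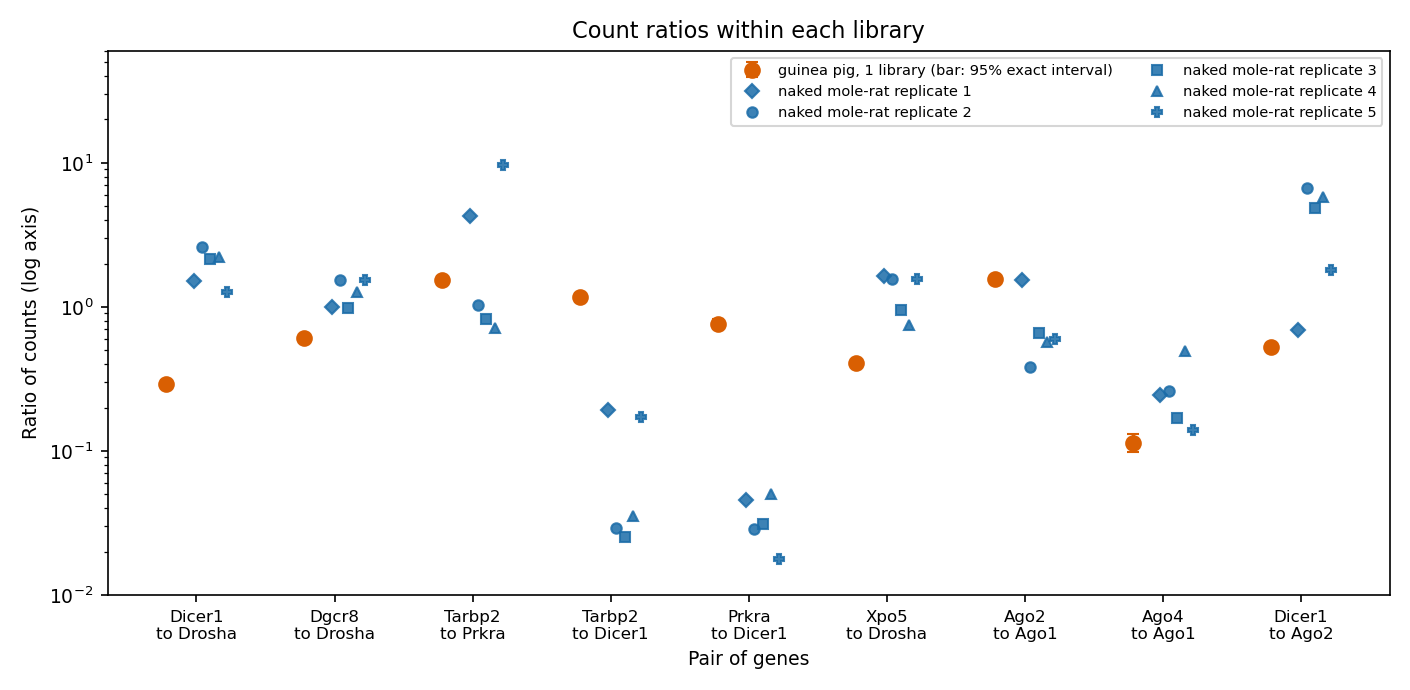
Ratio of counts of 2 genes within a library (log axis) for guinea pig (orange, with its 95% exact interval) and the 5 naked mole-rat libraries (blue, one symbol per replicate). Tarbp2 to Dicer1 and Prkra to Dicer1 are higher in guinea pig than in any naked mole-rat library, and Dicer1 to Drosha is lower.

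The balance of the Argonaute genes also differed between females. Of the counts of Ago1, Ago2, Ago3 and Ago4 together, Ago2 took 49.9% in replicate 1 and 15.9%, 24.3%, 18.9% and 28.2% in replicates 2 to 5. Ago3 took 9.42% in replicate 1 and 17.8% in replicate 5, against 31.4%, 32.6% and 31.5% in replicates 2, 3 and 4. Replicates 1 and 5 thus had the 2 highest Ago2 shares and the 2 lowest Ago3 shares. Ago1 took 32.6%, 41.9%, 36.9%, 33.2% and 47.3% in replicates 1 to 5, and Ago4 took 6.27% to 16.4%, with the highest share in replicate 4. Counting error was small beside these differences, since the 95% Clopper-Pearson interval of the Ago2 share was 48.7% to 51.2% in replicate 1 and 22.9% to 25.7% in replicate 3, the library with the fewest Argonaute counts. Without replicate 1 the mean shares over 4 libraries were 39.8% for Ago1, 21.8% for Ago2 and 28.3% for Ago3.

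Across species the shares were taken over Ago1, Ago2 and Ago4, the Argonautes measured in both. Ago2 took 58.3% in guinea pig (95% Clopper-Pearson interval 56.9% to 59.7%), against 55.1%, 23.2%, 36.0%, 27.5% and 34.3% in naked mole-rat replicates 1 to 5. The guinea pig share lay above all 5, but close to that of replicate 1. Ago4 took 4.27% in guinea pig (3.73% to 4.86%), against 8.08% to 24.0% in naked mole-rat, below all 5. Ago1 took 37.4% in guinea pig, within the naked mole-rat range of 36.0% to 61.0%, but below all of replicates 2 to 5, which ran from 48.5% to 61.0%. The stroma sum was highest in guinea pig and replicate 1, at 373 and 192 CPM, as were the Ago2 shares. In replicate 1, Col1a1 alone held 126 CPM of that sum, and in guinea pig the median stroma marker was at 8.08 CPM. The other lists did not follow the Ago2 shares in this way. Granulosa markers summed to 895 CPM in guinea pig and 6823 CPM in replicate 1, and immune markers to 11.6 and 105 CPM. Endothelial markers summed to 579 CPM in guinea pig and 105 CPM in replicate 1, the lowest naked mole-rat value. The part of these cell types in the shares was not tested.

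**Figure D4:**
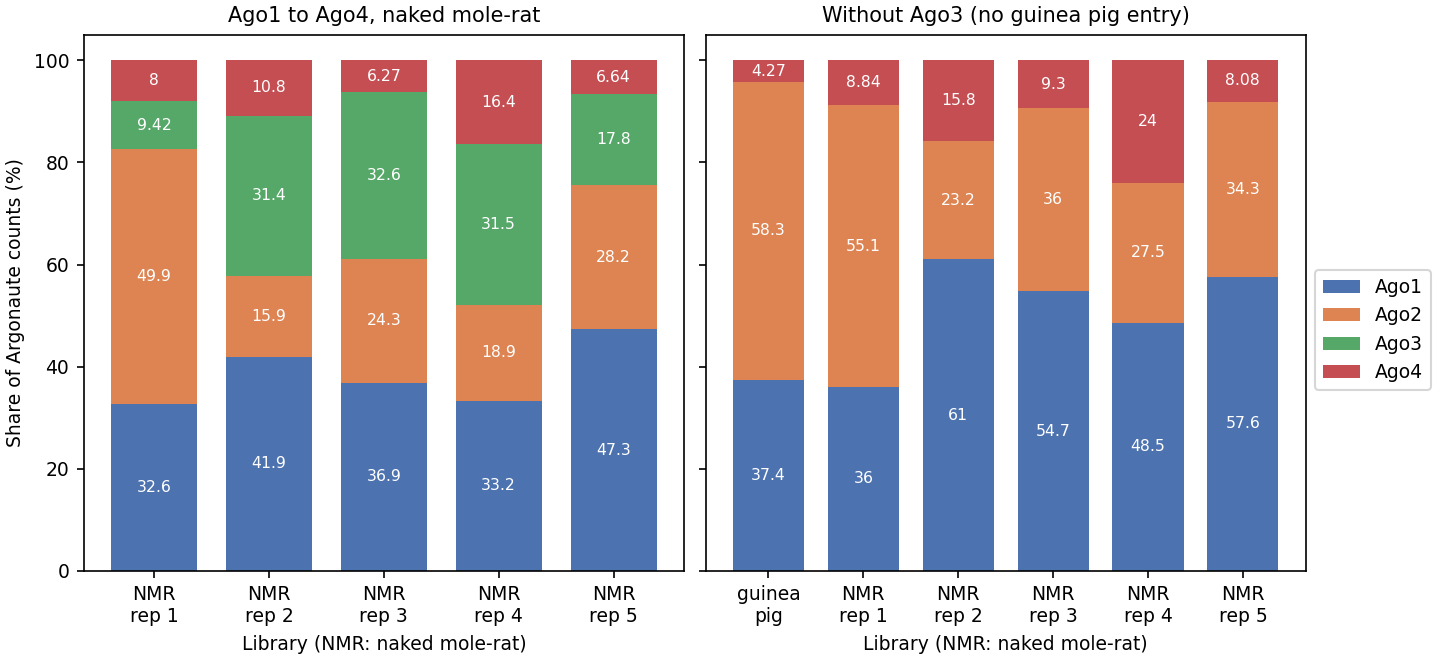
Share of Argonaute counts (%) per library, for Ago1 to Ago4 in the 5 naked mole-rat libraries (left) and for Ago1, Ago2 and Ago4 in guinea pig and the same libraries (right). Ago2 takes 49.9% in replicate 1 and 15.9% to 28.2% in replicates 2 to 5 on the left, and 58.3% in guinea pig on the right.

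Within naked mole-rat, 6 members split replicates 1 and 5 from the other 3 libraries. Tarbp2, Ago2 and Ago1 were higher in both of them than in each of replicates 2 to 4, and Dicer1, Prkra and Ago3 were lower in both. This grouping was noticed in the data and is a description without a test. Of 14415 entries with a mean of at least 1 CPM, 30.8% were higher in both and 16.8% were lower in both. Among the 10 members these numbers were 3 and 3. The count of higher members is near the background, and that of lower members rests on 10 genes and was not tested. Neither count is a result about the members as a set. Over all genes the chi-square per gene between replicates 1 and 5 was 289.5. Replicate 5 was closer to replicates 2 to 4, at 134 to 183. Replicate 1, in turn, was closer to replicate 5 than to replicates 2 to 4, at 300 to 489.5. The granulosa sums of 6823 and 1888 CPM in replicates 1 and 5, against 568 to 881 CPM in the other 3, moved with this split, and their part in it was not tested. The oocyte list did not split the same way, with sums of 4662 and 10293 CPM in replicates 1 and 5 and 8367 to 10456 CPM in the others. With effective library sizes from TMM, a scaling that lowered the values of replicate 1 by 0.28 on the log2 scale and raised those of replicates 2 to 4 by 0.10 to 0.13, Ago1 no longer split in this way, at 126 and 151 CPM in replicates 1 and 5 and 98.2 to 130 CPM in the others, while the other 5 genes did, and 24.3% of all entries were then higher and 23% lower in both.

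**Figure D5:**
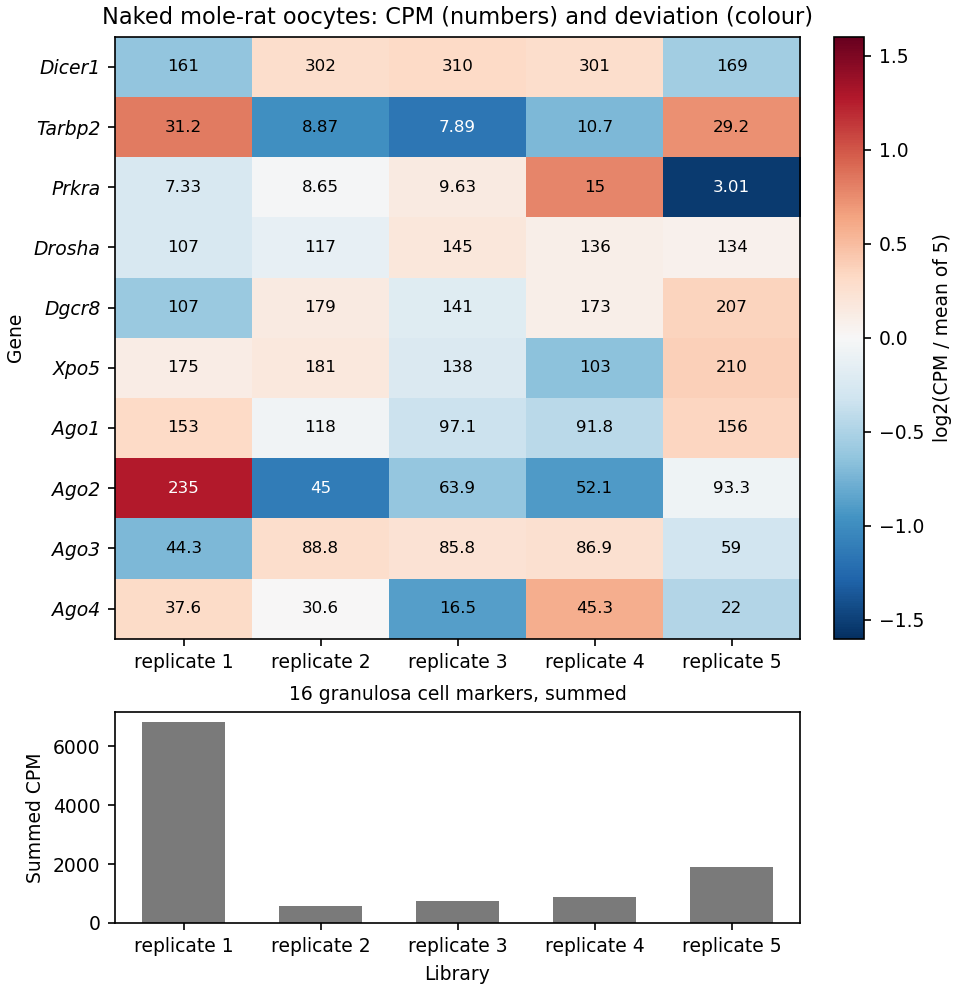
Top, CPM (numbers) and log2 of CPM over the mean of the 5 libraries (colour) for each gene and naked mole-rat replicate; bottom, summed CPM of 16 granulosa cell markers in the same libraries. Dicer1, at 161 and 169 CPM, is low and Tarbp2, at 31.2 and 29.2 CPM, is high in replicates 1 and 5, whose granulosa sums are 6823 and 1888 CPM.

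The libraries labelled O were compared with those labelled Y, 2 of each, as the titles group them. No member passed the test. Over all genes, edgeR's quasi-likelihood test called 0 of 15079 (0%) at an adjusted p under 0.05, with 707 at an unadjusted p under 0.05 and 59 called by DESeq2, none of them a member. Tarbp2 had the largest difference among the members, with 10.7 and 29.2 CPM in the O libraries, against 8.87 and 7.89 CPM in the Y libraries, a log2 fold change of 1.09 with a standard error of 0.66 (edgeR, adjusted p = 1.00). Both O values were above both Y values, but that of replicate 4 was close to them. Without replicate 5 the log2 fold change of Tarbp2 was 0.30, smaller than that of Ago4 at 0.88, Xpo5 at -0.69 or Prkra at 0.67, and without replicate 4 that of Prkra was larger in size, at -1.76, than that of Tarbp2 at 1.63.

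Dicer1 had 301 and 169 CPM in the O libraries, against 302 and 310.2 CPM in the Y libraries, a log2 fold change of -0.48 with a standard error of 0.36 (edgeR, adjusted p = 1.00). One O library thus matched the Y libraries and the other did not. Without replicate 4, with replicate 5 as the lone O library assumed to vary like the others, Dicer1 had a log2 fold change of -1.02 (edgeR, adjusted p = 0.023) and 494 of 16209 genes (3.05%) were called. Over the 10 members, 5 log2 fold changes were positive, and their median was -0.00, beside 0.05 over all genes tested.

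Partners of the pathway were taken from a list of 32 genes, all with an entry in naked mole-rat and 30 in guinea pig. By the 2-fold rule, 0 of the 29 tested in both species were higher in guinea pig and 3 were lower, beside 18.5% and 15.1% of all genes tested. Lin28a, whose protein keeps let-7 precursors from Dicer, had 4.53 CPM in guinea pig, against 14.7 to 65.8 CPM in naked mole-rat. Dis3l2, an exonuclease that degrades uridylated let-7 precursors, had 37.7 CPM in guinea pig, against 93.1 to 173 CPM, and Fkbp5, a co-chaperone of HSP90, had 12.7 CPM, against 44.4 to 184.5 CPM. At any fold, 18 of the 29 lay below the naked mole-rat range and 2 above it, beside 29.1% and 37.2% of all genes tested. Their median log2 ratio was -0.59, beside 0.12 over the genes tested with a level above 0 in both species.

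Tnrc6b, a scaffold that links Argonautes to deadenylation, had 325 CPM in guinea pig and 594 ± 79.1 CPM in naked mole-rat (SD, n = 5). The chaperone genes Hsp90aa1 and Hsp90ab1, whose products help to load Argonautes, had 427 and 533 CPM in guinea pig, against 1055 ± 211 and 1256 ± 549 CPM in naked mole-rat (SD, n = 5). Hsp90ab1 had 2193 CPM in replicate 1, and its mean without that library was 1022 ± 193 CPM (SD, n = 4). The guinea pig values of these 3 genes lay below all 5 naked mole-rat libraries without passing the 2-fold rule. Limd1, an Argonaute-binding adaptor, had 17.7 CPM in guinea pig and 1.52 to 39.8 CPM in naked mole-rat, with 39.8 CPM in replicate 1 and at most 8.59 CPM in the others. The helicase gene Mov10 had 3.26 CPM in guinea pig, 60.8 CPM in naked mole-rat replicate 1 and 1.75 to 15.8 CPM in the other naked mole-rat libraries. Lin28b, the paralog of Lin28a, had 1.01 to 9.64 CPM in naked mole-rat. In the comparison of O with Y libraries, edgeR called 0 of the 32 partners, and without replicate 4 it called 1, the cap-binding gene Ncbp1, named here after its values were seen, with a log2 fold change of -1.31 (edgeR, adjusted p = 0.021).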

How the data were processed

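Total RNA of oocytes was depleted of ribosomal RNA, made into directional libraries and sequenced as paired reads of 150 bases. After trimming by Trim Galore, which the methods name for the naked mole-rat data, HISAT2 aligned the reads to HetGla_female_1.0 (naked mole-rat) or Cavpor3.0 (guinea pig), and the authors counted per gene in SeqMonk 1.47.2. Trim Galore and HISAT2 versions are 0.6.2 and 2.0.5 in the methods and 0.6.1 and 2.1.0 in the submitters' processing notes. The deposited values are raw counts per gene. The sources used here give no counting options, so the handling of strand and shared reads is unknown.

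CPM was computed on column totals, so the effect of transcript length remains, and no interval covers more than counting error. No 2 naked mole-rat libraries were duplicates (chi-square per gene 48.6 to 489.5). Species were matched by symbol without case, leaving out 26 date-like entries per table and repeated symbols. A gene was tested where guinea pig, or else each naked mole-rat library, had 100 counts or more. O and Y libraries were compared with edgeR 4.0.16 (TMM, filterByExpr, quasi-likelihood test, Benjamini-Hochberg over all genes) in R 4.3.3, tested on simulated data, with DESeq2 1.42.0 as an alternative. Intervals are 95% exact. The members, lists and rules were chosen with earlier results of these data known. Named genes are all members, and partners past the 2-fold rule or with the 3 highest or 3 lowest naked mole-rat means. Leaving out replicates 1 and 5 together, TMM for the species rule, and counting at any fold were added after the values were seen.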

Additional observations from a re-analysis of the deposited data

Results flagged for a closer look

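In naked mole-rat, the gap separating the most distant library from the next value, as a fraction of the whole range, was taken for 29 values over the 5 libraries: the 10 levels, 4 Argonaute shares, 10 count ratios and 5 marker sums. It was above the critical value of 0.71 for 5 of them, each time with replicate 1 highest. Chance gives about 5% where values are normally distributed, which was not checked here. Replicate 1 was also the highest library for 42.9% of the 14415 entries with a mean of at least 1 CPM, so that place is not particular to these values. The values are not independent of each other. The 5 fractions were 0.745 for Ago2 CPM, 0.759 for the ratio of Ago2 to Ago1, 0.789 for the granulosa sum, 0.838 for the stroma sum and 0.815 for the immune sum. With TMM scaling the fraction for Ago2 was 0.714, barely above the critical value. The stroma and immune sums were 192 and 105 CPM in replicate 1, against 5.06 to 35.5 and 3.19 to 22 CPM in the others. Of these sums in replicate 1, Col1a1 held 126 CPM and Cd74 held 98.6 CPM. The part of other ovarian cells in the Ago2 level of replicate 1 was not tested.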

How the results depend on the processing

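The count of members past the species rule was 3 as given, 0 at 4-fold, 5 at 1.5-fold and 7 at any fold outside the range, and over all genes 3461 as given, 1778 at 4-fold, 6816 at any fold and 5404 without replicates 1 and 5. Other scalings, count minimums and single replicates left out kept these counts within 1.5 times. Leaving out a replicate could only keep or raise them. Genes called between O and Y numbered 0 as given, 66 without the filter, 59 with DESeq2 and 4 to 494 without 1 library, and members called numbered 0 to 1. Without 1 library, log2 fold changes that changed sign ran from -1.76 to 0.67 for Prkra, -0.21 to 0.086 for Drosha, -0.047 to 0.31 for Dgcr8, -0.69 to 0.23 for Xpo5, -0.28 to 0.37 for Ago1, -0.11 to 0.62 for Ago2 and -0.27 to 0.94 for Ago4. Mean levels and ratios that moved by over 1.5 times without 1 library were Ago2, at 63.6 CPM without replicate 1 against 97.8 CPM, and Tarbp2 to Prkra, at 1.70 without replicate 5 against 3.30. The cause of these shifts was not tested. Shares per coding length were not run, for want of lengths. With 1 guinea pig library, no difference between species has a replicate check.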
